A study of Mus musculus with 8 samples.

Results

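Fragments of nucleosome length were compared with short fragments in the single-cell ATAC-seq set of mouse spleen purified with reverse crosslinking (+RV). Members were all fragments on chromosomes 1 to 19, pooled over barcodes, whose deposited end minus start was 150 to 250 bp (nucleosome-length) or 51 to 100 bp (short). Fragments of exactly 75 bp were left out, because a read cut to that length piles up there. Another rise inside the short class, at 52 and 53 bp (321990 and 305211 fragments), was kept. The set held 14747920 fragments on all chromosomes, from 18620 barcodes that were deposited already selected by fragment number and share at transcription start sites. Of its 13351045 autosomal fragments, 1944017 (14.6%) were nucleosome-length and 4907413 (36.8%) were short. Both pooled single-cell sets of the series together held 16475805 fragments.

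Nuclei were isolated from spleen tissue of C57BL/6J mice, fixed in formalin for 16 h and embedded in paraffin (FFPE). The study's methods give the mice as 8 weeks old and of both sexes. Nuclei of both conditions were cut with indexed Tn5, a transposase that inserts sequencing adapters into open DNA, and barcoded by splitting and pooling. The DNA was then purified either with heat and enzyme treatment that undoes formaldehyde bonds (+RV) or without it (−RV). The labels name no allele or agent beyond the strain and the purification, and nothing says that libraries came from separate animals. The labels name 2 single-cell libraries per condition, but each condition was deposited as 1 pooled set, so each counts as 1 sample, no test between conditions or classes was possible, and all 95% intervals cover counting error only. The −RV set served as control. It held 1727885 fragments from 2406 barcodes, and of its 1549849 autosomal fragments 33010 (2.13%) were nucleosome-length and 610931 (39.4%) short. Peaks of the 2 bulk +RV libraries gave the regions.

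DNA in the nucleus is wrapped around histone cores to form nucleosomes. Tn5 cuts mostly in the linker DNA and in the nucleosome-free stretch that active promoters and enhancers keep open. A pair of cuts inside such an open stretch give a short fragment, while cuts on either side of a nucleosome give a longer one. At active genes the first nucleosome downstream of the transcription start site (TSS), called +1, is strongly positioned. CTCF, a zinc finger protein that anchors chromatin loops, is known for well-ordered nucleosomes on either side of its sites.

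The lengths themselves showed no separate nucleosome peak. In the +RV set the number of fragments fell steadily through the longer class, from 30057 at 150 bp to 22687 at 180 bp, 18275 at 200 bp and 10440 at 250 bp. The class is therefore named here for its length alone. Its median length was 187 bp (quartiles 167 and 213 bp), and that of short fragments 66.0 bp. In the −RV set the counts fell from 1243 at 150 bp to 607 at 180 bp and 26 at 200 bp, and no fragment exceeded 250 bp, which allows at most 3 of 1549849. The −RV class thus had a median of 164 bp and covered the lower part of the range only. A shallow wave lay on the +RV curve. Local maxima above the running trend stood at 105, 115, 126, 136, 145, 155 and 165 bp, each 0.02 to 0.06 above it on the log2 scale.

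**Figure D1:**
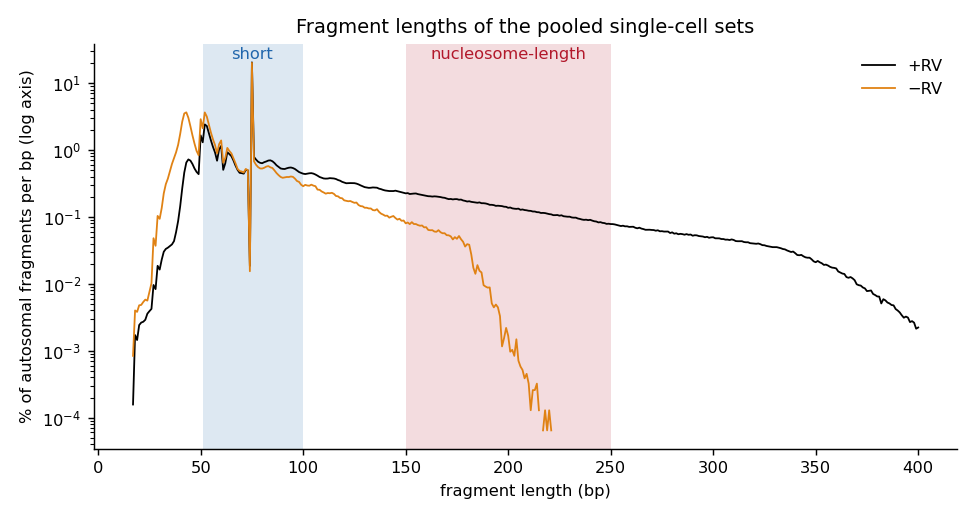
Percent of autosomal fragments at each length in bp (log axis) in the pooled +RV set (black) and −RV set (orange), with the short class shaded blue and the nucleosome-length class red. The +RV curve declines through the red band with no peak, the −RV curve drops steeply after about 180 bp, and the spike at 75 bp (20.4% of +RV fragments) was left out of both classes.

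Each value below is the share of nucleosome-length fragments among fragments of both classes. On +RV autosomes this share was 28.4% (28.3 to 28.4). It was 25.03% on chromosome X and 22.5% on mitochondrial DNA, which carries no nucleosomes. Without reverse crosslinking it was 5.13%, 4.12% and 12.4%, so there the mitochondrial share was the highest of the 3. Over single +RV barcodes the share had a median of 27.8% (5th to 95th percentile 22.0 to 35.3). Its SD was 4.06 percentage points, against 2.56 from counting at the median of 311 class fragments per barcode. Across the 20 Tn5 indices that mark the first barcoding wells, the share ran from 27.3 to 33.1%.

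Promoter regions held more nucleosome-length fragments relative to short ones than distal regions, and both held more than the rest of the genome. Regions were merged bulk peaks found in both +RV libraries, and a fragment was counted where its midpoint lay. The 12439 promoter regions, which touch a window from 1000 bp before to 200 bp after the TSS of a protein-coding gene, held 392850 nucleosome-length and 543363 short fragments, a share of 42.0% (41.9 to 42.1). The 20018 distal regions, at least 2000 bp from any annotated TSS, held 123402 and 207496, a share of 37.3% (37.1 to 37.5). Outside all regions the share was 25.3% (25.3 to 25.4). The ratio of nucleosome-length to short fragments was thus 1.22 times higher at promoters than at distal regions (1.21 to 1.23), 2.13 times higher at promoters than outside (2.12 to 2.14) and 1.75 times higher at distal regions than outside (1.74 to 1.77). Promoters alone held 20.2% of all nucleosome-length fragments but 11.1% of all short ones.

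The same order was found on each chromosome and in each Tn5 index. The promoter share was above the distal share on 19 of 19 chromosomes and in 20 of 20 Tn5 indices, with a promoter to distal ratio of 1.18 to 1.26 in both series. The distal share was above the outside share on 19 of 19 chromosomes and in 20 of 20 indices. Shares in the −RV set were lower throughout, at 11.4% for promoters, 9.68% for distal regions and 3.88% outside. The −RV promoter to distal ratio was 1.20 (1.15 to 1.26). Its promoter to outside ratio was 3.19 (3.11 to 3.27).

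Base composition moved with this contrast. Mean GC content of nucleosome-length fragments was 62.5% at promoters and 50.3% at distal regions, and that of short fragments 62.7% and 51.4%. Within windows of 250 bp on either side of each summit, the promoter to distal ratio was 1.15 (1.10 to 1.21) at a GC content under 45%, 1.14 (1.12 to 1.16) at 45% to under 55%, and 1.11 (1.09 to 1.14) at 55% to under 65%. At 65% and over it was 0.992 (0.938 to 1.05), where 4486 promoter regions met only 153 distal ones. Promoter regions were also wider, with a median of 1001 bp against 487 bp. Among regions of like width the ratio was 1.10 under 500 bp, 1.11 at 500 to under 1000 bp and 1.13 at 1000 bp and over. The part of either in the difference was not tested. Among distal regions, the 9271 in introns had a share of 36.9% (36.7 to 37.2) and the 9956 between genes 37.6% (37.4 to 37.8).

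Around TSSs the 2 classes took different positions. One TSS per gene was used, the one most transcripts share, at the 10646 genes whose promoter window held a bulk +RV region. Levels are midpoints per 10-bp bin in a 50-bp running mean, relative to the stretches 1900 to 2000 bp away. Short fragments were densest 60 bp upstream of the TSS, at a level of 20.9, and fell to 6.55 at 140 bp downstream. Nucleosome-length fragments were densest 120 bp upstream, at 24.2, with a second, lower maximum 90 bp downstream, at 19.0. They still stood at 16.9 at 140 bp downstream, and a further small maximum of 8.35 followed 320 bp downstream. Within 0 to 500 bp downstream the highest level was at the TSS itself, at 20.2, because the upstream maximum reaches across it.

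The share of nucleosome-length fragments by zone shows the alternation. It was 46.2% (45.9 to 46.5) from 250 to just over 150 bp upstream, 36.8% (36.6 to 37.0) in the last 150 bp before the TSS, and 53.2% (52.9 to 53.5) from 80 to under 200 bp downstream. It then fell to 41.9% (41.5 to 42.4) at 200 to under 280 bp, stood at 42.6% (42.1 to 42.98) at 280 to under 380 bp, and was 34.9% (34.6 to 35.2) from 1000 bp to the end of the 2000-bp reach. The same zones of the −RV set gave 14.4%, 12.7%, 11.6%, 8.25%, 8.13% and 6.14%. The zone 80 to under 200 bp downstream thus had the highest of these shares with reverse crosslinking. In the −RV set it did not. Its −RV interval of 10.7 to 12.4 met the 12.3 to 13.2 of the last 150 bp before the TSS. The nucleosome-length class was longer with reverse crosslinking (median 187 bp) than without it (median 164 bp). Zone shares were not compared at matched lengths, so the part of fragment length in this difference was not tested.

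The nucleosome-length class was not uniform in position. Fragments of 150 to 180 bp were densest 70 bp upstream (level 24.7), close to the short ones, with no maximum near 90 bp downstream and a low one at 320 bp (7.61). Those of over 180 to 210 bp had maxima 120 bp upstream (24.4) and 90 bp downstream (19.3). Those of over 210 to 250 bp had 2 nearly equal maxima, 140 bp upstream (25.7) and 100 bp downstream (25.4), with a level of 18.9 at the TSS between them. Fragments of over 250 to 400 bp, outside the class, were densest 110 bp downstream (32.1). The level 140 bp downstream over the level 50 bp upstream rose accordingly, from 0.314 for short fragments to 0.533, 0.780, 1.07 and 1.76 in the 4 successive longer bins. This quotient in the −RV set was 0.274 for short fragments and 0.255 for those of 150 to 180 bp, which were densest 50 bp upstream at a level of 55.2.

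**Figure D2:**
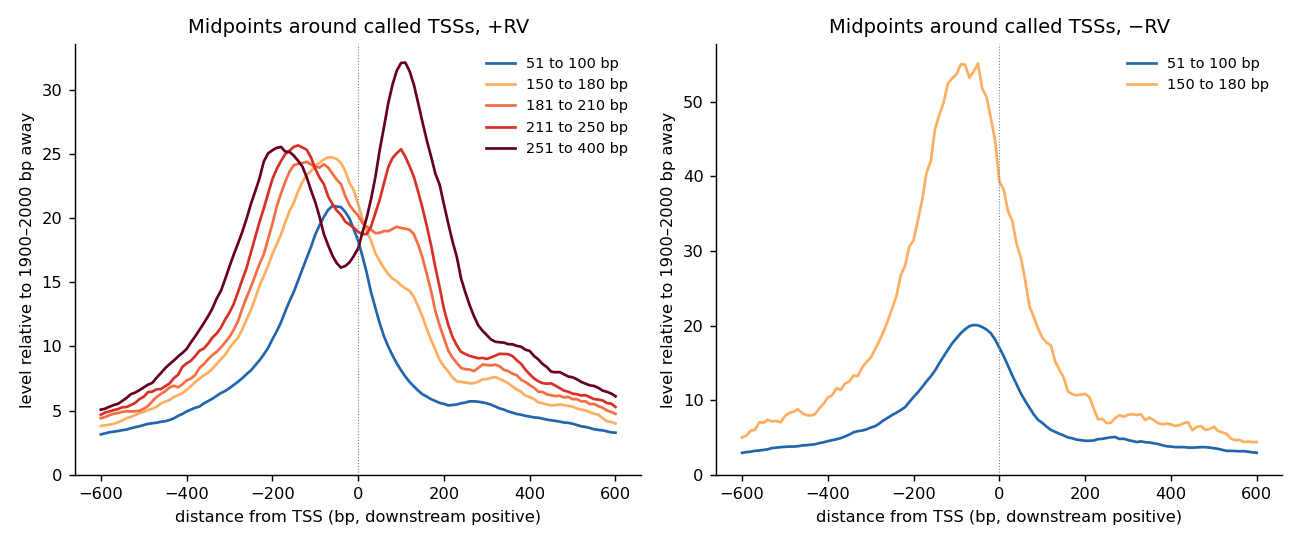
Midpoint level around 10646 called TSSs against distance from the TSS in bp, with downstream positive, for fragment length bins in the +RV set (left) and the −RV set (right); levels are relative to 1900 to 2000 bp away and the vertical scales differ. With reverse crosslinking a maximum about 100 bp downstream appears above 180 bp and grows with length, and the 150 to 180 bp curve of the −RV set has no maximum there.

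**Figure D3:**
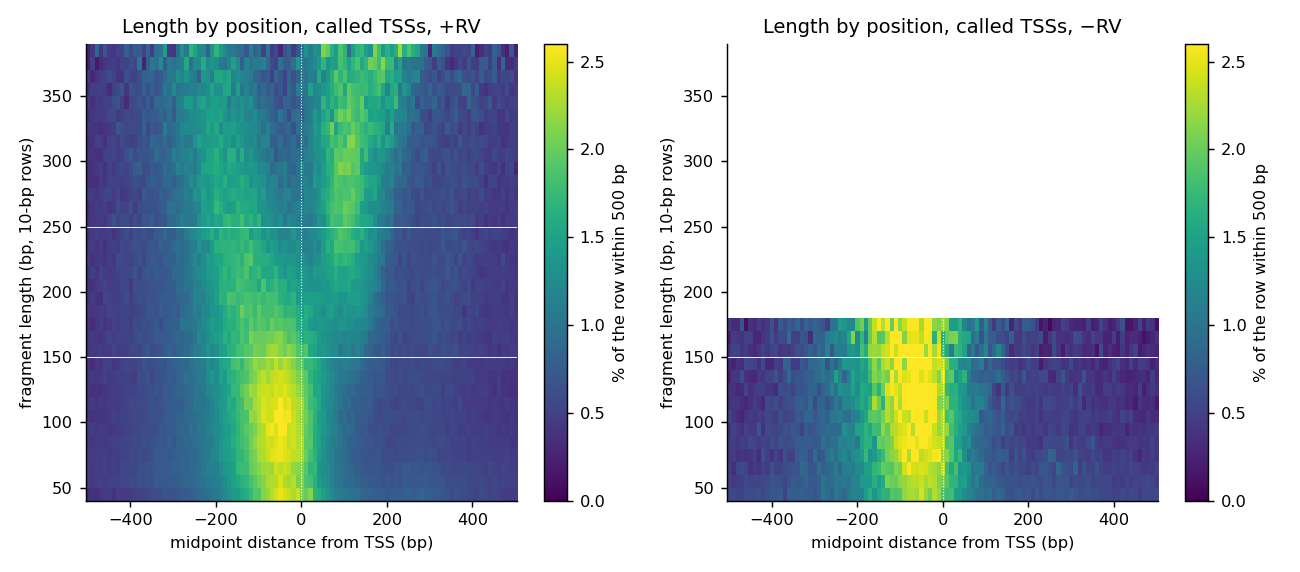
Fragment length in 10-bp rows against midpoint distance from called TSSs in bp, coloured by the percent of each row's midpoints within 500 bp of the TSS; horizontal lines mark 150 and 250 bp. The +RV map forks above about 180 bp into an upstream and a downstream branch, while the −RV map, drawn up to 180 bp, keeps a single upstream column.

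Downstream maxima were also seen at weaker and at bidirectional promoters. Among the 3549 called TSSs with the lowest bulk fold, nucleosome-length fragments had maxima of 8.69 at 120 bp upstream and 7.79 at 110 bp downstream. Among the middle 3548 they had 30.9 at 120 bp upstream and 25.2 at 100 bp downstream. Among the 3549 with the highest fold the level was highest 80 bp upstream, at 57.5, with no separate downstream maximum, and the level 140 bp downstream over that 50 bp upstream was 0.642 against 0.861 among the lowest. At the 1790 bidirectional TSSs, with another gene's start on the opposite strand within 1000 bp upstream, the upstream maximum lay at 130 bp (41.1) and the downstream one at 90 bp (30.5). The 10154 TSSs without a bulk region, loci with piled-up reads left out, still had low maxima of 3.58 at 100 bp upstream and 3.10 at 60 bp downstream.

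At the summits of bulk peaks short fragments took the centre and nucleosome-length fragments the shoulders. Within 50 bp of distal summits the share was 33.3% (33.0 to 33.6), and 150 to 250 bp away it was 42.1% (41.7 to 42.4). The centre to flank ratio of nucleosome-length to short fragments was therefore 0.687 (0.673 to 0.701). At promoter summits the shares were 37.2% and 49.1%, a ratio of 0.613 (0.605 to 0.621). Both classes were enriched at the centre in absolute terms, with levels of 8.07 for nucleosome-length and 6.80 for short fragments at distal summits and 23.9 and 19.1 at promoter summits. At 200 bp from distal summits the levels were 3.97 and 2.44. In the −RV set the ratio was above 1, at 1.11 (0.987 to 1.25) for distal summits, an interval that holds 1, and 1.13 (1.05 to 1.21) for promoter summits. With the class held to 150 to 180 bp in both sets, the promoter ratio was 0.733 (0.720 to 0.746) in +RV and 1.15 (1.06 to 1.24) in −RV.

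Distal regions with CTCF letters had the strongest split of the 2 classes among the 4 letter motifs with over 100 such regions. A CTCF core of 12 letters, 3 of them free, was searched on both strands in the 300 bp around each summit, and was chosen after seeing the data. It stood in 590 of 20018 distal regions (2.95%) and in 281 of 12439 promoter regions (2.26%). Centred on the letters, short fragments were at their highest at 0 bp (level 9.60), and nucleosome-length fragments had a lower level there (6.00), a maximum 100 bp away on average over both sides (8.82) and a second one 320 bp away (2.91). The share was 21.9% (20.2 to 23.6) within 50 bp and 40.7% (38.4 to 43.1) 150 to 250 bp away, a ratio of 0.408 (0.356 to 0.467). Among −RV fragments the 13 nucleosome-length and 232 short fragments within 50 bp were too few to place the ratio, 0.630 (0.280 to 1.42).

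CTCF matches from 3 distal regions with many fragments are shown with 20 bases on either side, read from the GRCm38 (mm10) reference 5′ to 3′ on the strand of the match, with the matched letters in capitals. They show what the letters look like in place and how few fragments a single site gives.
chr7:73618495-73618546, minus strand, intergenic: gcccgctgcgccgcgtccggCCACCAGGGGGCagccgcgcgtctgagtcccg
chr1:86504309-86504360, minus strand, intergenic: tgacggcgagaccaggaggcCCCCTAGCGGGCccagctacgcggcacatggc
chr7:101310770-101310821, plus strand, intergenic: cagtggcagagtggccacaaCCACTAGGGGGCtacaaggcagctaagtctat
The first lies 76775 bp from the nearest TSS used here, that of Chd2, a chromatin remodeler, and its region held 118 nucleosome-length and 107 short fragments. Within 50 bp of the letters it had 27 and 8, and 150 to 250 bp away 28 and 19, which runs against the average of the group. The second lies 22391 bp from Ptma, which encodes prothymosin alpha, and had 11 and 10 at the centre and 13 and 15 in the flanks, also against the average. The third lies 6290 bp from Stard10, a lipid transfer protein gene, and had 3 and 13 at the centre and 8 and 9 in the flanks, in the direction of the average.

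Other letter motifs gave smaller departures from the 0.687 of all distal summits. Windows here were centred on the letters. GAGGAAGT, a core bound by PU.1, the myeloid and B cell factor, stood in 11.8% of distal and 4.32% of promoter regions and gave a ratio of 0.710 (0.669 to 0.753). TGTGGTTT, the RUNX core, stood in 6.23% and 1.49% and gave 0.803 (0.740 to 0.870). TGANTCA, the AP-1 core, stood in 11.7% and 4.57% and gave 0.837 (0.790 to 0.888). The palindromic NRF1 core of 10 letters stood in 28 distal regions (0.140%) and 1.962% of promoter regions, and its distal ratio was 0.452 (0.320 to 0.638). A match describes letters and not a bound site.

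**Figure D4:**
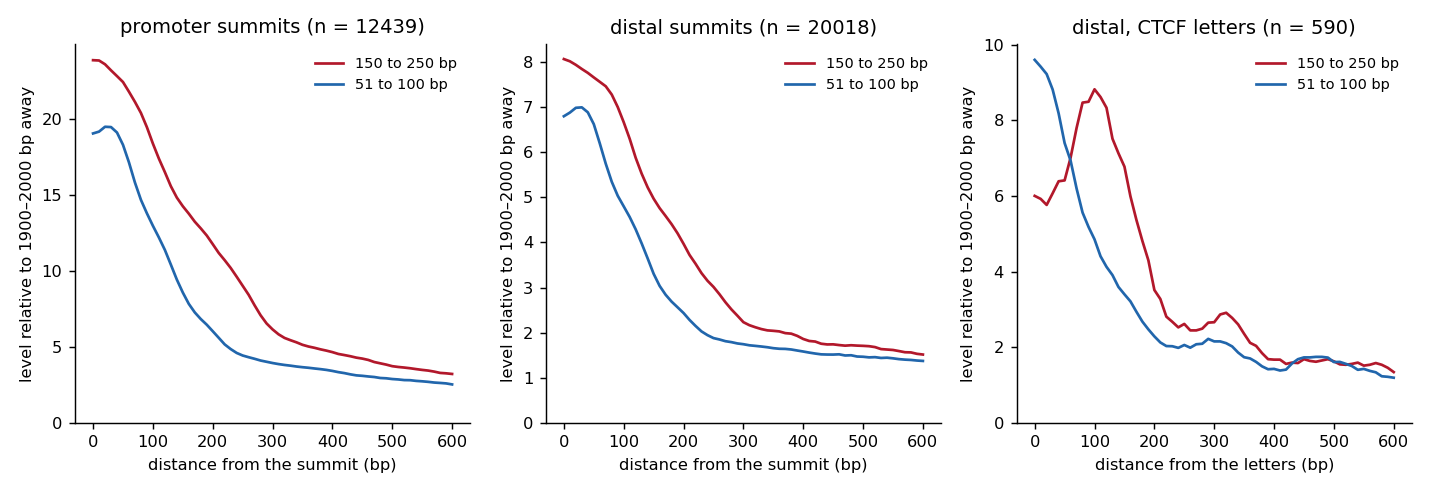
Level of nucleosome-length (red) and short (blue) midpoints in the +RV set against distance in bp from promoter summits, distal summits and CTCF letters in distal regions, averaged over both sides and relative to 1900 to 2000 bp away. Around CTCF letters the curves cross between 50 and 100 bp, whereas at summits in general both fall from the centre and the red one reaches farther out.

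Genes were compared in their promoter windows, 1000 bp upstream to 200 bp downstream of any of their TSSs. Of 20807 protein-coding genes, 4916 (23.6%) had at least 100 fragments of both classes together. Over all windows, counted once, the share was 39.3% (39.2 to 39.4), and its ratio served as the reference. The windows tested had a median share of 41.3%, with 5th and 95th percentiles of 32.5 and 50%. Their SD was 5.50 percentage points, against 4.05 from counting alone. Against the reference, 313 windows (6.37% of those tested) had a ratio at least 1.5 times higher and leaned to nucleosome-length fragments, and 103 (2.10%) had a ratio at least 1.5 times lower and leaned to short ones. The reference lies below the middle of the windows tested, since 3158 had a ratio above it and 1758 below it. The 95% interval excluded equality for 313 of the first group and 93 of the second. The same counts set both the calls and the intervals, so this gives the calls no further support. Among all windows tested the interval lay above 1 for 678 (13.8%) and below 1 for 122 (2.48%), uncorrected for their number. Just inside and outside the upper limit were Mex3c at 1.501 and Pdp1 at 1.499, and at the lower limit Pitrm1 at 0.666 and Kifc2 at 0.670, so the limits cut a continuous range.

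Some leaning windows lay in repeats or stacks. Of the 15 genes leaning most to short fragments by the upper bound of the interval, 6 were predicted genes of repeat-rich stretches. These were Gm10715, Gm11168 and Gm10720 near the start of chromosome 9, Gm10800 and Gm10801 on chromosome 2 and Gm21738 on chromosome 14. Gm10718 and Gm10722, beside them on chromosome 9, leaned the other way, with 282 nucleosome-length against 25 short fragments and 659 against 623. Stap2 had 2 against 125, where 84.3% of fragments shared 1 end, and its neighbour Mpnd, with which it shares a window, 75 against 228 with 35.3% at 1 end. Rdx, which encodes radixin, had 33 against 105 with 39.9% at 1 end. In all, 28 windows tested had over 10% of fragments at 1 end or lay in a bin of 1 kb with over 1000 fragments. Without them 310 genes (6.34%) leaned to nucleosome-length and 91 (1.86%) to short fragments. Gm10715, with 10 against 248 and 8.14% at 1 end, met neither limit and stayed among the 91.

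Genes that leaned to nucleosome-length fragments, free of stacks and with windows of their own, were led by Cnnm2 and Ube2s. Cnnm2, which encodes a magnesium transport mediator, had 100 nucleosome-length and 65 short fragments, a share of 60.6% (52.7 to 68.1) and 2.38 times the reference ratio (1.72 to 3.30). Ube2s, a ubiquitin-conjugating enzyme gene of the anaphase-promoting pathway, had 161 and 120, a share of 57.3% (51.3 to 63.2) and 2.07 times the reference (1.63 to 2.65). Rab33b and Rab5a, small GTPases of the Golgi and of early endosomes, had 66 and 46 and 114 and 89 fragments. Tedc1 had 143 and 120, Dcaf15 71 and 53, and Fchsd2 103 and 83. Nmt1, Taf9, Rad17, Ak6, Rps25 and L3hypdh share windows with neighbours, and Taf9, Rad17 and Ak6 are starts around 1 locus on chromosome 13, with 50 to 55 short and 69 to 73 nucleosome-length fragments each. Their reads cannot be assigned to one gene or the other. In the −RV set Cnnm2 had 2 nucleosome-length and 15 short fragments and Ube2s 2 and 22.

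Genes that leaned to short fragments, free of stacks and with a bulk region, were led by Ostc. It encodes a subunit of the oligosaccharyltransferase complex and had 21 nucleosome-length and 90 short fragments, a share of 18.9% (12.1 to 27.5) and 0.361 times the reference ratio (0.213 to 0.585). Vopp1 had 26 and 86, a share of 23.2% (15.8 to 32.1). Lgr4, a receptor for R-spondins, had 23 and 78, a share of 22.8% (15.0 to 32.2). Hpf1, which encodes a cofactor of PARP enzymes, had 37 and 113. Asnsd1 and Asdurf, which lie in the same place on chromosome 1, had 27 and 94 and 24 and 82. These counts are small, and each gene's interval is wide.

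Promoters of 4 of these genes are shown from RefSeq on GRCm38.p6, from 250 bases before to 50 after the RefSeq start, 5′ to 3′ on the gene's strand. The 2 that lead each group with a window of their own, a bulk region and a RefSeq entry were taken. Capitals mark matches on either strand to the GC box GGGCGG, the CCAAT box CCAAT, the TATA box TATAAA, the ETS core CCGGAAGT, the NRF1 core, the YY1 core AAGATGGC or the CTCF letters.
Cnnm2, nucleosome-length, chr19:46761359-46761658, plus strand: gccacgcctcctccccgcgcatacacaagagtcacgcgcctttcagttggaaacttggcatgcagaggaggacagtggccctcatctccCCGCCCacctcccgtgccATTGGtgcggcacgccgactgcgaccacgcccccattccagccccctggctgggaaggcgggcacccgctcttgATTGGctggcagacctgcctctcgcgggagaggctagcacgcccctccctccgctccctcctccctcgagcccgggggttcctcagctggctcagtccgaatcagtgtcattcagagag
Ube2s, nucleosome-length, chr7:4812291-4812590, minus strand: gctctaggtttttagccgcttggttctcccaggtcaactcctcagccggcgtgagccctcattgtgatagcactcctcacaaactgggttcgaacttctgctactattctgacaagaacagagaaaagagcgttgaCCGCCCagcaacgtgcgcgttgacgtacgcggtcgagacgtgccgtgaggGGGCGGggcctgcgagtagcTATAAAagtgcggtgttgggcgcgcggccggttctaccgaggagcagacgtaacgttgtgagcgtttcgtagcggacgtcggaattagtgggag
Vopp1, short, chr6:57825076-57825375, minus strand: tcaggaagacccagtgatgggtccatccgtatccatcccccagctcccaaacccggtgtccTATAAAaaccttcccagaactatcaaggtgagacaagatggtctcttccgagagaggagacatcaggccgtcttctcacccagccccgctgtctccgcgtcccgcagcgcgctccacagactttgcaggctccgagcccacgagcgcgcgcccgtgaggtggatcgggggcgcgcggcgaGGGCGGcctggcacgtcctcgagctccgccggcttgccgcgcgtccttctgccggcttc
Lgr4, short, chr2:109917397-109917696, plus strand: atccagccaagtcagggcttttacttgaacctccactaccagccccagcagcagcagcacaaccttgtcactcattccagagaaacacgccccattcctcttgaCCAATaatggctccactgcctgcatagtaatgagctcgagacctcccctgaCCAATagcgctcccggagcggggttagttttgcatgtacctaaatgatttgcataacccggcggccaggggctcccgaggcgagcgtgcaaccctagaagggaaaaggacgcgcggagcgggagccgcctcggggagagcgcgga
Cnnm2 has 2 CCAAT boxes and 1 GC box, Ube2s 2 GC boxes and 1 TATA box, Vopp1 1 GC box and 1 TATA box, and Lgr4 2 CCAAT boxes. In this order they hold 21, 30, 30 and 18 CpG dinucleotides. Medians without stacks were 25 for nucleosome-length leaners, 21.5 for short leaners and 24 for all genes tested. The median of all RefSeq promoters was 7. The Ube2s start that most GENCODE transcripts share, at position 4812590, is the first base of the stretch shown. The boxes marked for Ube2s therefore lie downstream of that start.

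Over all leaning genes without stacks that matched a RefSeq promoter, letter matches are given as descriptions. A GC box stood in 72.3% of 235 promoters of that group, in 72.8% of 3693 that leaned to neither and in 68.6% of 70 of the short group, against 35.7% of all 32851 RefSeq promoters. A CCAAT box stood in 37.9%, 46.4% and 58.6%, against 37.4% of all. A TATA box stood in 6.81%, 5.06% and 14.3%, against 13.6% of all, where the last group's share is 10 of 70 promoters. The ETS core stood in 10.2%, 9.13% and 10%, against 3.89% of all, and the NRF1 core in 3.40%, 2.68% and 5.71%, against 0.971%. The YY1 core stood in 4.68%, 5.63% and 2.86%, against 2.75%, and the CTCF letters in 3.40%, 1.30% and 2.86%, against 0.971%. In the short group these 4 shares rest on 7, 4, 2 and 2 of 70 promoters. The NRF1 and CTCF shares of the nucleosome-length group rest on 8 of 235 each.

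Other traits of the groups are given as descriptions. Windows of genes leaning to nucleosome-length fragments had a median GC content of 52.5% and 4.05 CpG per 100 bp, against 50.9% and 3.10 for genes leaning to neither and 48.4% and 2.41 for the short group. A bidirectional start was found for 31.9%, 23.4% and 10.7%, and a window shared with another gene for 41.5%, 32.2% and 15.5%. Median fragments per window were 139, 145 and 114, and median window lengths 2507, 3712 and 3638 bp. Across 4910 windows outside pile-ups, the share had a Spearman rho of 0.258 with CpG density and 0.130 with GC content. It was −0.189 with window length and −0.0564 with the bulk fold of the 4429 windows that had a region. Genes are not independent replicates and share the pooled set, so these are descriptions of it.

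In the −RV set, which played no part in choosing the genes, groups without stacks had shares of 12.05% (11.1 to 13.1) for nucleosome-length, 11.6% (11.3 to 11.8) for neither and 9.51% (7.74 to 11.5) for short leaners. The intervals of the first 2 overlap, and that of the last lies below the first in part only. Fragments in shared windows count once per gene in these sums, so the intervals are too narrow. Gm10715, in a repeat-rich stretch, stayed in the last group with 0 nucleosome-length and 39 short fragments. With stacked windows kept, the short group's share was 4.73% (4.04 to 5.51).

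The position of fragments within leaning genes is given as a description, since the same fragments chose the genes. At the 169 nucleosome-length leaners with a called, unshared window, the +RV share was 47.9% (46.6 to 49.2) in the last 150 bp before the TSS and 61.5% (59.4 to 63.5) from 80 to 200 bp downstream. At 2718 genes leaning to neither these were 38.0% and 53.2%, and at 73 short leaners 22.5% (20.9 to 24.1) and 45.1% (41.5 to 48.8). The rise from the first zone to the second was thus present in all 3 groups. Of the short fragments in the window, 44.1% lay in the last 150 bp before the TSS at short leaners, 34.3% at neither and 29.0% at nucleosome-length leaners.

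Among gene families and pathways, replication-dependent histone genes, which supply histones in S phase, stood highest. Of 67 annotated, 23 were tested, 10 leaned to nucleosome-length fragments, against 6.37% of all genes tested, and 0 to short ones. Their median log2 ratio was 0.47, against 0.12 for all genes tested. Hist1h2bg had 60 nucleosome-length and 44 short fragments (57.7%), Hist1h2ak 61 and 51 (54.5%), Hist1h4c 66 and 59 (52.8%) and Hist1h2ag 71 and 67 (51.4%), while Hist1h2be had 36 and 77 (31.9%). These genes are near-identical and sit in clusters, so reads may be split among copies, and H2A and H2B pairs share their windows. The 23 covered 17 separate stretches and the 10 covered 7. Windows of the 23 were 1201 to 1247 bp long, against a median of 3673 bp for all genes tested. Across windows the share had a Spearman rho of −0.189 with window length, and the part of window length here was not tested. Over all 67 windows the share was 45.1% (43.8 to 46.5) in +RV and 16.8% (13.9 to 20.2) in −RV, above all windows in both (39.3% and 9.91%). This sum counts a fragment once per gene where windows overlap, so its intervals are too narrow. In the total over all windows each fragment was counted once.

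Housekeeping and immediate early genes followed. Of 16 housekeeping genes tested, 2 leaned to nucleosome-length fragments, against 6.37% of all genes tested. Of these 16, 13 were above the reference, as were 3158 of all 4916, and their median log2 ratio was 0.27 against 0.12. Vps29, a retromer subunit gene, had 64 and 60 fragments in a window shared with a neighbour. Ywhaz had 139 and 185 and Eef1a1 139 and 177, both leaning to neither. Of 14 immediate early genes, 2 leaned, with a list median of 0.24 beside the same background. Jund, a member of the AP-1 family, had 116 and 106 fragments (52.3%). Dusp1, a phosphatase of MAP kinases, had 101 and 104 (49.3%) in a window shared with a neighbour. Jun had 118 and 131 and Klf6 188 and 262, both leaning to neither.

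The other lists are read against a background of 6.37% leaning to nucleosome-length and 2.10% to short fragments and a median log2 ratio of 0.12. Of 43 ribosomal protein genes, 2 leaned to nucleosome-length (Rps25 with 72 and 53, Rpl7l1 with 52 and 53) and 1 to short (Rps15a with 34 and 84), with a median log2 ratio of 0.11. Rps23 had 87 and 151 fragments and leaned to neither. Of 35 respiratory chain genes 1 leaned to nucleosome-length, Ndufs7 of complex I with 69 and 68 (median 0.22), while Atp5j had 149 and 197 and Ndufa4 98 and 114. Of 15 proteasome genes 1 leaned, Psmb3 with 63 and 63 (median 0.17), while Psma2 had 64 and 131 and Psmb1 71 and 89. Of 103 zinc finger genes 4 leaned to nucleosome-length and 2 to short (median 0.05), the latter Zfp128 with 27 and 81 and Zfp324 with 27 and 74. The former were Zfp668 with 70 and 64, Zfp213 with 52 and 50, Zfp646 with 71 and 70 and Zfp84 with 54 and 54, while Zfp78 had 153 and 188 and Zfp367 131 and 171. Of 10 cell cycle genes 0 leaned in either direction (median −0.01), and Mcm7 had 87 and 146 and Mcm4 89 and 124. Of 4 interferon-stimulated genes tested 0 leaned either way (median −0.03), among them Stat2 with 63 and 110 and Gbp3 with 54 and 82.

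**Figure D5:**
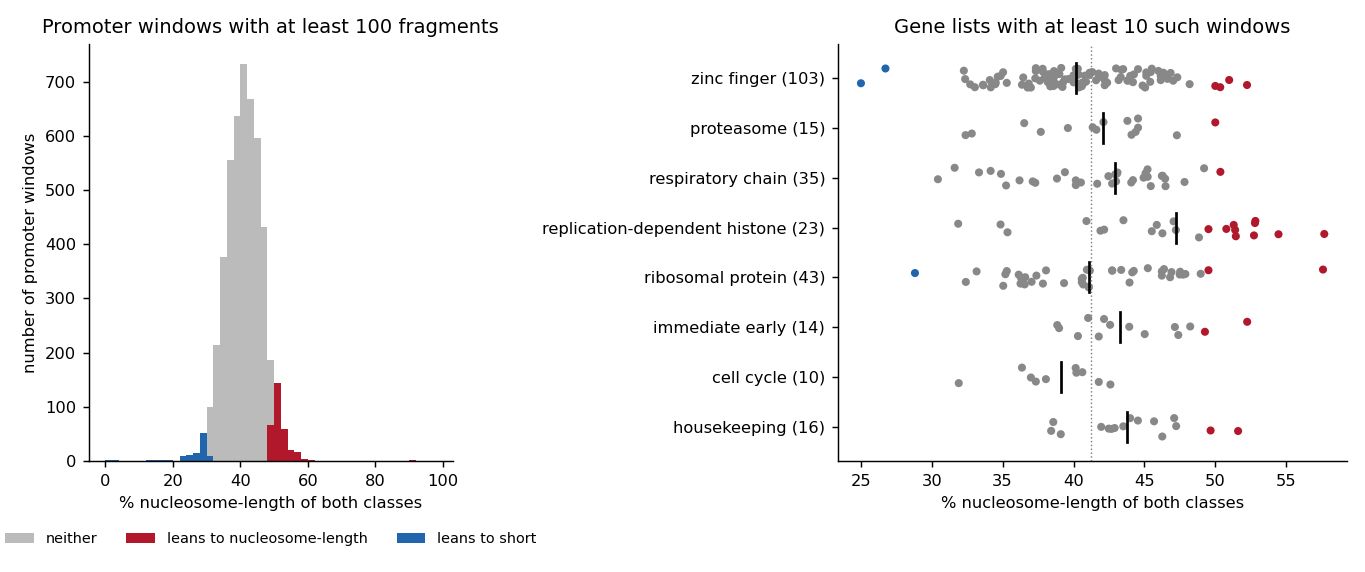
Left, number of promoter windows (at least 100 fragments) by the percent of nucleosome-length fragments, with leaning genes in red and blue; right, each tested member of the gene lists with 10 or more such windows, a black bar at the list median and a dotted line at the 41.3% median of all windows tested. Histone genes lie to the right, with 10 of 23 in red, and the other list medians fall between about 39 and 44%.

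Lists of cell types gave few tested windows, so only sums are given for them. The sums in this paragraph count a fragment once for each gene of the list whose window holds it. The share summed over all windows of a list was 40.1% (36.9 to 43.4) for 16 B cell genes, 38.8% (35.1 to 42.7) for 18 T cell genes, 39.6% (35.5 to 43.8) for 16 macrophage genes, 42.2% (39.3 to 45.1) for 15 erythroid genes and 36.6% (31.8 to 41.6) for 12 endothelial genes. These intervals all hold the 39.3% of all windows except that of erythroid genes, whose lower bound rounds to it. Cxcr5 and Cd74 of the B cell list had 28 and 54 and 33 and 45 fragments. Slc40a1 and Spi1 of the macrophage list had 37 and 56 and 30 and 48. Pecam1 and Egfl7 of the endothelial list had 32 and 56 and 26 and 40. Zfpm1, an erythroid cofactor of GATA factors, had 101 and 156 fragments, Nfe2 74 and 128, and Lck, a T cell kinase, 40 and 83, beside Gata3 with 27 and 35. The share was 24.7% (18.9 to 31.4) for 14 neuron genes, 28.1% (13.7 to 46.8) for 11 hepatocyte genes, 32.0% (27.3 to 37.0) for 39 Hox genes and 19.0% (17.7 to 20.3) for 1128 olfactory receptor genes. The share outside bulk regions, 25.3%, lies within the intervals of the neuron and hepatocyte lists, below that of Hox genes and above that of olfactory receptor genes. Median fragments per gene, over windows of unequal length, were 55.5 for B cell, 29.5 for T cell, 31.5 for macrophage, 53.0 for erythroid and 24.0 for endothelial genes. They were 11 for neuron, 3 for hepatocyte and 3 for olfactory receptor genes, and 33 for all 20807 protein-coding genes. The spleen cell types thus had higher medians than these 3 lists. Only B cell and erythroid genes lay above the median of all genes, and T cell, macrophage and endothelial genes lay below it. Pancreatic acinar genes had a median of 13.0 and a share of 37.2% (31.9 to 42.8), led by Cela1, an elastase gene, with 58 and 112 fragments, and their part in the pooled values was not tested.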

How the data were processed

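ATAC-seq of mouse spleen nuclei was deposited as 1 table of fragments per single-cell condition and 1 peak list per bulk library. Per the study's methods, the authors mapped reads cut to fixed lengths with BWA, removed duplicates and kept barcodes by unique fragments and by the share at TSSs. The methods name MACS2 for single-cell data, and for bulk peaks the caller was not given in the sources used here. Per the labels the build was mm10, and the submitters' processing notes also name Bowtie2 2.4, Picard 1.119, SAMtools 1.15 and SEACR 1.3 without roles. The deposited peak lists hold a peak score, a fold enrichment and −log10 p and q values, of which the fold ranked regions. Fragment rows carry no molecular identifiers and some positions repeat within a barcode. With each kept once, 300 of 4849 genes tested leaned to nucleosome-length and 96 to short fragments. Barcodes had a median of 667 fragments in the +RV and 633 in the −RV set.

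Fragments were placed by midpoint in bins of 10 bp, and TSSs came from GENCODE for the same build. Shares carry exact Clopper-Pearson 95% intervals and ratios log-normal ones. Named genes were the 15 farthest from the reference in each direction by the nearer interval bound, the 2 members of each list with most fragments, and list members that leaned. Examples beyond these were chosen after their values were seen. Some genes that the rule names are not reported here. The members, lists and alternatives were chosen with earlier results of these data known. Analyses used Python 3.11.15, numpy 2.4.6, pandas 2.3.3, scipy 1.17.1 and matplotlib 3.10.9, and the interval code was tested on simulated data.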

Additional observations from a re-analysis of the deposited data

Results flagged for a closer look

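The summit to flank ratio of nucleosome-length to short fragments lay on opposite sides of 1 in the 2 conditions. At promoter summits it was 0.613 in the +RV set and 1.13 in the −RV set, and at distal summits 0.687 and 1.11. Each condition is 1 pooled set, so the difference was not tested. The −RV class held few fragments of 200 bp or more. With the class held to 150 to 180 bp in both sets, the ratios were 0.733 and 1.15 at promoter summits and 0.773 and 1.11 at distal summits, where the last interval, 0.979 to 1.25, holds 1.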

How the results depend on the processing

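The promoter to distal ratio of 1.22 was 1.20 in the −RV set, 1.25 with both fragment ends, 1.19 with regions of all 4 bulk libraries and 1.24 to 1.24 without either bulk_+RV replicate. Within GC classes, chosen after seeing the data, it was 1.15, 1.14, 1.11 and, at 65% and over, 0.992, and within width classes 1.10, 1.11 and 1.13. The distal summit to flank ratio of 0.687 was 0.662 against 76 to 100 bp, 0.711 against 51 to 74 bp, 0.671 with barcodes of at least 1000 fragments, 0.618 with both ends, 0.569 for over 210 to 250 against 76 to 100 bp, 0.710 to 0.712 without either replicate, and 1.11 in the −RV set. The highest downstream position of 0 bp became 90 bp over all annotated TSSs and as a local maximum, 100 bp for over 210 to 250 bp and 110 bp for over 250 to 400 bp. The short-fragment position stayed between −70 and −40 bp in 8 of 8 alternatives. Of 4916 genes tested, 313 leaned to nucleosome-length fragments. This became 149 of 2462 against 76 to 100 bp, of which 96 were among the 313. Against 51 to 74 bp it was 376 of 2678, of which 156 were among the 313. For 160 to 230 against 51 to 100 bp it was 286 of 4078, of which 190 were among them. Windows of 250 bp on either side gave 188 of 2827. With barcodes of at least 1000 fragments it was 12 of 72, of which 3 were among the 313. In the −RV set only 3 genes could be tested, and 0 leaned this way. It was 628 of 9077 at a count minimum of 50 and 71 of 968 at 200. A fold of 2 gave 17 of 4916, and leaving out shared windows gave 183 of 3319. Of the same 4916 genes, 103 leaned to short fragments. This became 28 of 2462 against 76 to 100 bp, of which 7 were among the 103. For 160 to 230 against 51 to 100 bp it was 94 of 4078, of which 49 were among the 103. It was 40 of 2678 against 51 to 74 bp and 4 of 72 with barcodes of at least 1000 fragments. In the −RV set the 3 genes tested all leaned to short fragments. Count minima of 50 and 200 gave 523 of 9077 and 8 of 968. A fold of 2 gave 17 of 4916. Apart from the alternatives' own construction, the cause was not tested. No paired analysis was possible because each single-cell condition was deposited as 1 pooled set.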
